A study of Mus musculus with 18 samples.

Results

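The transcripts described here are 34 mouse genes of homologous recombination, of the Fanconi anaemia pathway and of the checkpoint kinases that act with them. They were chosen by gene symbol and not by a threshold on their values, but with earlier results of these data known. All 34 were found among the 21959 genes listed for fibroblasts and among the 51826 genes listed for liver. The study deleted repeat B of *Xist*, a C-rich repeat of the long non-coding RNA that silences 1 X chromosome in female cells, with CRISPR/Cas9 and a pair of guides in mouse zygotes. RNA sequencing counts were compared between RepB-/- samples, homozygous by the study's account, and wild-type (WT) samples. There were 3 RepB-/- and 3 WT libraries from cells labelled primary mouse embryonic fibroblasts (MEFs) and 3 and 3 from liver. The labels give the source of the MEFs as tail and give no age, sex, passage or treatment, the methods name ICR mice, and brain libraries were not analysed here. Nothing in the labels states that libraries of a group came from separate animals or cultures, so the p-values measure the spread between these libraries, which may be technical.

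Homologous recombination repairs a broken chromosome by copying the intact sister. The MRN complex (Mre11, Rad50 and Nbn) binds the ends, nucleases such as Exo1 resect them, BRCA1, BARD1, PALB2 and BRCA2 prepare the single strands for strand exchange, and Rad51b, Rad51c, Rad51d, Xrcc2, Xrcc3 and the RAD54 motors help them invade the template. The Fanconi pathway deals with DNA crosslinks and stalled forks: a core complex, with Fancl as its ubiquitin ligase subunit, modifies the Fancd2 and Fanci pair, which recruits nucleases and the recombination proteins. ATM and ATR signal breaks and single-stranded DNA to the kinases Chek2 and Chek1, with Topbp1 and claspin (Clspn) as activators of the ATR arm. Many of these genes are transcribed mainly in cells that replicate their DNA, and are usually low in tissues whose cells seldom divide.

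Depth was between 20005541 and 20587556 counts in the RepB-/- MEF libraries and was 11540344, 16057358 and 16347806 in the WT libraries. Between 15453 and 15545 genes had a count in RepB-/- MEFs and between 17191 and 17664 in WT MEFs, so the deeper group listed fewer genes. Liver libraries held 37682201 to 51542709 counts. *Xist* is not among the MEF values used here. Counts of the whole *Xist* gene do not show whether repeat B is present, so the deletion was checked in neither tissue. In liver, *Xist* stood at 290.4, 0.0794 and 661.5 CPM (counts per 1e+06 counts of the scaled library) in RepB-/- replicates 1 to 3 and at 323.3, 557.8 and 556.5 CPM in WT replicates 1 to 3. RepB-/- liver replicate 2 also held 4342 counts over 4 Y-linked genes, against at most 1 in the other liver libraries, and therefore stood apart from its group. Y-linked counts with almost no *Xist* are the pattern of male tissue, in which *Xist* silences no X chromosome, and the labels give no sex. Fibroblast markers were abundant in MEFs (Col1a1 at 5075.9 CPM or more in every library), hepatocyte markers summed to at most 2.41 CPM there, and in liver the same hepatocyte markers summed to at least 110805 CPM. *Usp9x*, the X-linked gene followed by the study, was 1.14 ± 0.08 higher in RepB-/- MEFs on the log2 scale (edgeR adjusted p = 3.53e-07).

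In MEFs, repair transcripts were more often higher than lower in RepB-/- cells. With edgeR's quasi-likelihood test and an adjusted p under 0.05, 16 of the 34 genes were higher, 1 was lower and 17 did not pass. Among all 13306 genes tested, 19.4% were higher and 19.7% lower. The median log2 fold change was 0.33 over the 34 genes and 0.00030 over all genes tested, and 29 of the 34 estimates were above 0. The sum of the 34 genes was 501.5, 522.3 and 509.7 CPM in RepB-/- and 393.6, 364.8 and 402.3 CPM in WT. The 3 RepB-/- libraries were all above the 3 WT libraries in 20 of the 34 genes (26.4% of all genes tested) and below in 3 (25.8%), and the genotypes overlapped in 11. These 20 were the 16 genes called higher plus 4 that did not pass the test, Bard1, Blm, Chek2 and Msh6. All 34 genes passed the filter on low counts, with 10 to 1693 counts of a gene in a MEF library. In bulk RNA, fewer cells of a type and less RNA per cell cannot be told apart, and this holds for every difference given here.

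**Figure D1:**
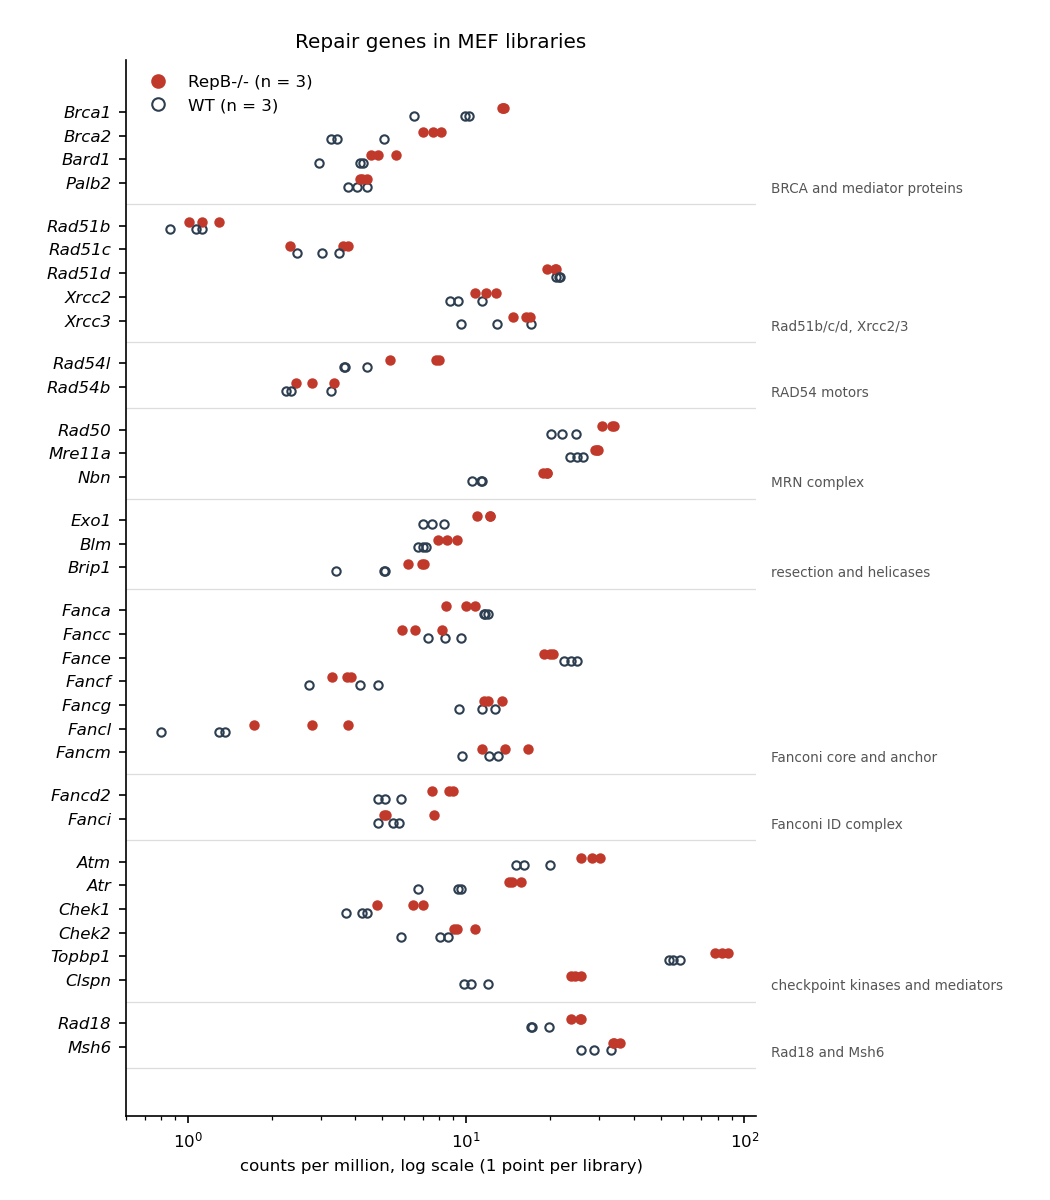
Level of each of the 34 genes in CPM on a log axis, 1 point per MEF library (filled, RepB-/-; open, WT; 3 each), ordered by role. The RepB-/- points lie to the right of all WT points in 20 genes, among them Clspn, Nbn and Topbp1, while the points of Rad51b, Rad51c, Xrcc2 and Xrcc3 overlap.

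Promoter letters are shown for the genes that hold an E2F site, since E2F factors drive many replication and repair genes at the start of S phase and 16 of the 34 genes moved the same way. RefSeq promoters of 300 bases (250 before and 50 after the start site, GRCm38.p6) were matched for 27 of the 34 genes. The E2F letters searched, on both strands, were TTTCCCGC, TTTCGCGC, TTTGCCGC and TTTGGCGC. They occurred in 8 of the 27 (29.6%), against 2.60% of 27025 genes with a promoter and 4.57% of the 10488 of these that were tested in MEFs. By genotype call, 3 of 12 matched genes that were higher in RepB-/- MEFs held the letters (Brca2, Clspn and Topbp1), and 5 of the 15 others did. The windows are given 5′ to 3′ on the strand of the gene, with the E2F letters in capitals, and positions count from the start site. Brca2 (chr5:150522427-150522486, plus strand) and Topbp1 (chr9:103305172-103305231, plus strand) held them before the start site, and Clspn (chr4:126556975-126557008, plus strand) just after it.
Brca2: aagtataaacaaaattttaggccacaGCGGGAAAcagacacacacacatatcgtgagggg
Topbp1: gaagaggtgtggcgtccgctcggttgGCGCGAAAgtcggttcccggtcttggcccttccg
Clspn: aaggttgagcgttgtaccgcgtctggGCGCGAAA

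The same letters stood in 5 genes that did not pass the test in MEFs. Bard1 (chr1:71103148-71103207, minus strand), Chek2 (chr5:110839805-110839864, plus strand), Fancg (chr4:43010320-43010379, minus strand) and Msh6 (chr17:87975039-87975072, plus strand) had 1 match each. Rad51c (chr11:87404945-87404985 and chr11:87404488-87404521, minus strand) had 1 match in each of 2 RefSeq promoters.
Bard1: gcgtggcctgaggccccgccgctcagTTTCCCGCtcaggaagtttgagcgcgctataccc
Chek2: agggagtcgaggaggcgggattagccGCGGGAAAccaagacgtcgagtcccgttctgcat
Fancg: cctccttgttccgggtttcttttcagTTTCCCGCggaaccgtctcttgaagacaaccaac
Msh6: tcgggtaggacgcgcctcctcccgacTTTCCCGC
Rad51c, first promoter: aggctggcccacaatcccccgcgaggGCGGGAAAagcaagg
Rad51c, second promoter: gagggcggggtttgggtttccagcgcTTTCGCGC

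The letters CCAAT, bound by NF-Y, occurred on either strand in 17 of the 27 promoters (63.0%), against 42.9% of the tested genes, in 6 of the 12 genes that were higher and in 11 of the 15 others. The cell cycle homology region TTTGAA, an element of G2 and M phase genes, occurred in 2 of the 27 (7.41%), against 14.3% of the tested genes, and in 0 of the 12 that were higher. A match describes letters in these windows and does not show binding.

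Of the BRCA group, both BRCA genes were higher in RepB-/- MEFs. Brca1, a ubiquitin ligase that steers breaks to recombination, stood at 13.7, 13.6 and 13.4 CPM in RepB-/- and at 10.3, 6.49 and 9.92 CPM in WT. Its log2 fold change was 0.61 ± 0.16 (SE, 3 libraries per genotype, as below; edgeR adjusted p = 0.00813). Brca2, which acts on the resected single strands, stood at 6.98, 7.59 and 8.11 CPM in RepB-/- and at 3.45, 3.28 and 5.05 CPM in WT, a difference of 0.94 ± 0.20 (edgeR adjusted p = 0.00245). For both genes all RepB-/- libraries lay above all WT libraries. Bard1, the partner of BRCA1, had 4.84, 5.58 and 4.56 CPM in RepB-/- and 4.25, 2.97 and 4.16 CPM in WT, and its difference of 0.40 ± 0.21 did not pass (edgeR adjusted p = 0.153). Palb2, the bridge between BRCA1 and BRCA2, overlapped between the genotypes with a difference of 0.07 ± 0.20.

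Of Rad51b, Rad51c, Rad51d, Xrcc2 and Xrcc3, related proteins that assist strand exchange, 0 of 5 passed the test. Of all genes tested, 19.4% were higher and 19.7% lower, and 5 genes are too few to set apart from those shares. The log2 fold changes of these 5 were 0.17 ± 0.36 for Rad51b, 0.11 ± 0.26 for Rad51c, -0.07 ± 0.10 for Rad51d, 0.27 ± 0.14 for Xrcc2 and 0.29 ± 0.17 for Xrcc3. Rad51b was the lowest of the 34 genes in WT MEFs at 0.283 FPKM (fragments scaled by gene length and depth), with 14 to 25 counts in a library. Rad51d stood at 21.0, 20.9 and 19.5 CPM in RepB-/- and at 21.7, 21.1 and 21.6 CPM in WT. Of the motor proteins that act in strand exchange, Rad54l was higher. It had 7.80, 8.01 and 5.32 CPM in RepB-/- and 4.41, 3.65 and 3.68 CPM in WT, a difference of 0.85 ± 0.21 (edgeR adjusted p = 0.00557). Rad54b, its relative, overlapped between the genotypes, with a difference of 0.12 ± 0.27.

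All 3 subunits of the MRN complex were higher, by unequal amounts, where 19.4% of all genes tested were higher. Nbn, the regulatory subunit (chromosome 4, 15957925 to 15992589, plus strand, GRCm39), stood at 18.96, 19.5 and 19.5 CPM in RepB-/- and at 10.5, 11.4 and 11.3 CPM in WT. That is a log2 fold change of 0.80 ± 0.11 (1.74-fold; edgeR adjusted p = 9.96e-05). Rad50, the ATPase that tethers the ends, had 33.4, 33.9 and 30.7 CPM in RepB-/- and 20.1, 22.0 and 24.8 CPM in WT, a difference of 0.55 ± 0.10 (edgeR adjusted p = 0.000868). Neither gene overlapped between the genotypes. Mre11a, the nuclease, had 29.8, 28.9 and 29.6 CPM in RepB-/- and 24.9, 23.6 and 26.4 CPM in WT. Its difference of 0.24 ± 0.09 lay at the threshold (edgeR adjusted p = 0.0499) and lost the call in 11 of the 13 alternatives.

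Among resection and helicase genes, Exo1 and Brip1 were higher. Exo1, an exonuclease that lengthens resected ends, stood at 12.2, 10.9 and 12.2 CPM in RepB-/- and at 8.34, 6.99 and 7.54 CPM in WT. Its log2 fold change was 0.63 ± 0.14 (edgeR adjusted p = 0.00293). Brip1, the helicase partner of BRCA1 that is also known as FANCJ, had 6.93, 7.08 and 6.18 CPM in RepB-/- and 5.13, 3.40 and 5.05 CPM in WT. Its difference of 0.58 ± 0.20 passed (edgeR adjusted p = 0.0328) but 5 of the 13 alternatives lost the call: DESeq2 (adjusted p = 0.0546), the GC offset described below, and leaving out RepB-/- replicate 1, RepB-/- replicate 2 or WT replicate 2. Blm, the helicase of Bloom syndrome, had 8.51, 7.90 and 9.27 CPM in RepB-/- and 6.74, 7.17 and 7.01 CPM in WT. The genotypes did not overlap, yet its difference of 0.29 ± 0.15 did not pass (edgeR adjusted p = 0.132).

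Of the 6 core subunits and the anchor Fancm, 1 was higher, 1 was lower and 5 did not pass, with a median log2 fold change of -0.12. At 14.3% in each direction, these counts are no larger than the shares of all genes tested (19.4% higher and 19.7% lower). Fancl had 2.80, 3.77 and 1.72 CPM in RepB-/- and 0.802, 1.30 and 1.37 CPM in WT, the largest fold change of the 34 genes at 1.23 ± 0.36 (2.35-fold; edgeR adjusted p = 0.0151). It is also 1 of the 3 least expressed genes in WT MEFs, and the call was lost without RepB-/- replicate 2 (log2 fold change 0.95). By GRCm38 annotation, 13.7% of its exon bases lie over exons of Vrk2 on the other strand, the counting is not stated to use strand, and Vrk2 (named after its values were seen) was also higher, by 0.60 ± 0.19. Fance, which contacts Fancd2, was the highest of the 34 genes per length in WT MEFs at 7.73 FPKM. It stood at 19.1, 20.5 and 20.0 CPM in RepB-/- and at 22.5, 23.7 and 25.01 CPM in WT, and fell by 0.26 ± 0.10 on the log2 scale (edgeR adjusted p = 0.0445), a call that 9 of the 13 alternatives lost. Scaffold subunits Fanca (-0.27 ± 0.13), Fancc (-0.29 ± 0.18), Fancf (-0.12 ± 0.24) and Fancg (0.15 ± 0.14) and the translocase Fancm (0.26 ± 0.16) did not pass.

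In the pair that the core complex modifies, Fancd2 was higher and Fanci did not pass. Fancd2 had 8.97, 8.68 and 7.55 CPM in RepB-/- and 5.85, 5.13 and 4.81 CPM in WT, a difference of 0.68 ± 0.17 (edgeR adjusted p = 0.00539). Fanci had 5.15, 5.06 and 7.65 CPM in RepB-/- and 4.81, 5.44 and 5.76 CPM in WT, a difference of 0.15 ± 0.20. In Fanci only RepB-/- replicate 3 lay above the WT libraries, and without that library the estimate was -0.06. Of the exon bases of Fanci, 15.95% lie over Polg on the other strand. Further overlaps of over 10% of exon bases were those of Rad54b with Fsbp on the same strand (35.8%) and, on the other strand, of Fancc with Gm16133 (16.4%), Rad54l with Lrrc41 (15.4%), Fancf with Gas2 (15.0%) and Fanca with Zfp276 (10.5%). Lrrc41, named after its values were seen, had a log2 fold change of 0.02 ± 0.08, beside the rise of Rad54l.

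Of the 6 checkpoint genes, 5 were higher and 0 lower, with a median log2 fold change of 0.64. Of all genes tested in MEFs, 19.4% were higher and 19.7% lower. Claspin (Clspn, chromosome 4, 126450728 to 126487696, plus strand, GRCm39) had the smallest p of the 34 genes. It stood at 23.8, 25.9 and 24.7 CPM in RepB-/- and at 9.86, 10.4 and 11.999 CPM in WT, a difference of 1.20 ± 0.11 (2.30-fold; edgeR adjusted p = 5.19e-06). Topbp1, the activator of ATR, had 78.3, 87.5 and 83.2 CPM in RepB-/- and 58.8, 53.5 and 55.5 CPM in WT, a difference of 0.57 ± 0.08 (edgeR adjusted p = 9.38e-05). Both genes kept their call in every alternative. The kinase Atr stood at 14.3, 15.7 and 14.6 CPM in RepB-/- and at 6.74, 9.59 and 9.39 CPM in WT (0.78 ± 0.14; edgeR adjusted p = 0.000896). Atm, its relative that answers double-strand breaks, stood at 25.9, 30.2 and 28.3 CPM in RepB-/- and at 16.2, 15.2 and 20.0 CPM in WT (0.71 ± 0.12; edgeR adjusted p = 0.000399). In both kinases the libraries of the genotypes did not overlap. Chek1, the effector of ATR, had 4.79, 6.97 and 6.44 CPM in RepB-/- and 3.69, 4.39 and 4.22 CPM in WT, a difference of 0.56 ± 0.20 (edgeR adjusted p = 0.0429) that 8 of the 13 alternatives lost. Chek2, the effector of ATM, had 9.07, 10.8 and 9.27 CPM in RepB-/- and 5.85, 8.04 and 8.61 CPM in WT, and its difference of 0.36 ± 0.17 did not pass (edgeR adjusted p = 0.101).

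Rad18, the ubiquitin ligase that marks PCNA at stalled forks, was higher. It stood at 25.7, 25.9 and 23.9 CPM in RepB-/- and at 17.2, 17.1 and 19.8 CPM in WT, a difference of 0.47 ± 0.10 (edgeR adjusted p = 0.00246). Msh6, a mismatch recognition subunit, had 33.8, 33.99 and 35.7 CPM in RepB-/- and 33.2, 25.8 and 28.7 CPM in WT. Its groups lay apart by a narrow margin, and its difference of 0.24 ± 0.10 did not pass (edgeR adjusted p = 0.0682). By position, all 5 genes on chromosome 9 (Atm, Atr, Chek1, Mre11a and Topbp1) were higher, where 22.0% of the 747 tested genes of that chromosome were. The calls of Mre11a and Chek1 were lost in 11 and 8 alternatives. Chromosome 6 had 2 of 2 higher, chromosome 11 had 4 of 6 and chromosome 4 had 3 of 5, while chromosomes 7 and 12 had 0 of 4 and 0 of 3. On these other chromosomes 15.2% to 19.7% of tested genes were higher, and the counts per chromosome are small. The 34 genes include none on the X chromosome.

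**Figure D2:**
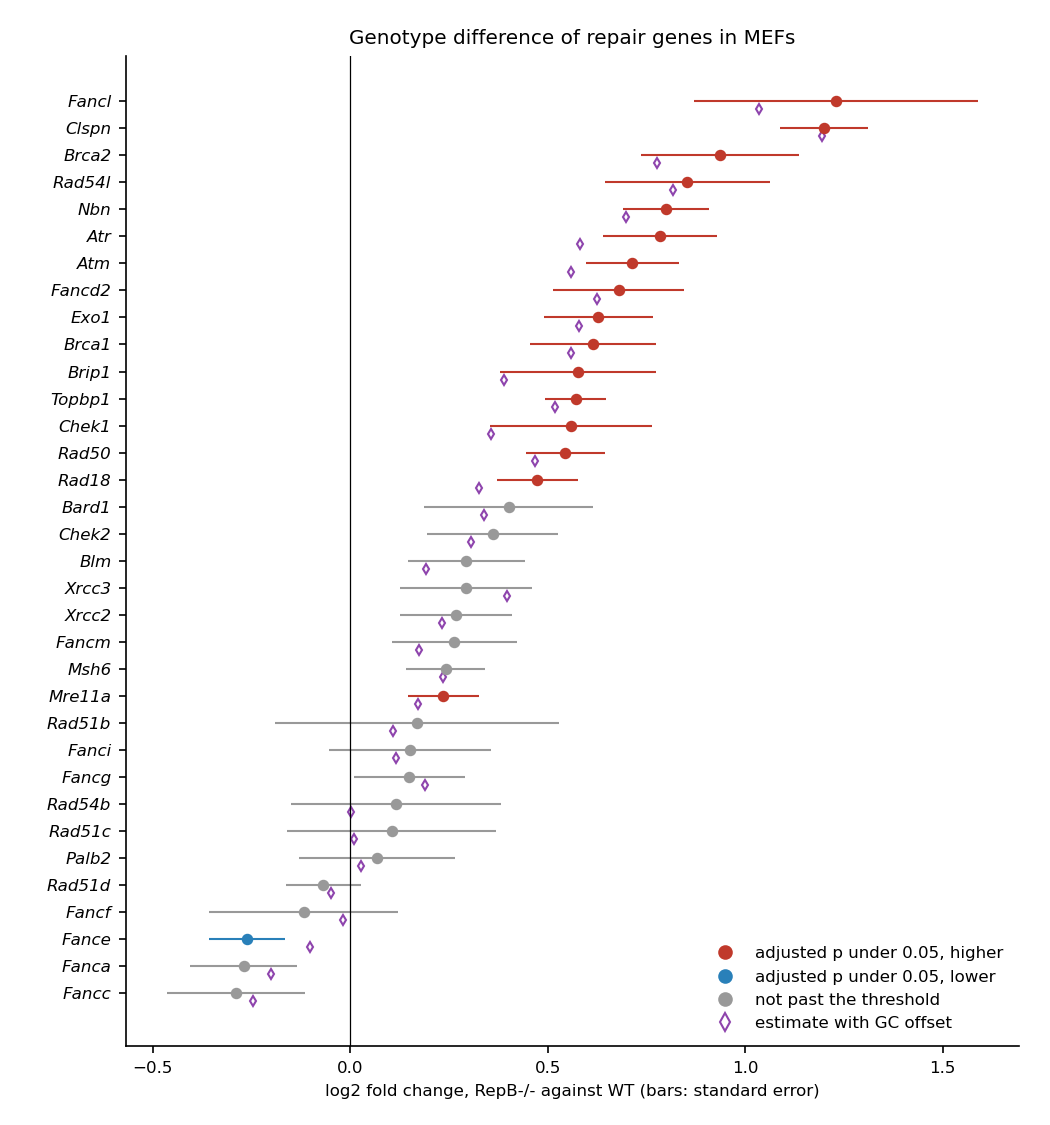
Log2 fold change of RepB-/- against WT MEFs for each of the 34 genes (points, with standard error bars), coloured by the call, and the estimate after the GC offset (open diamonds). Fancl and Clspn stand highest at 1.23 and 1.20, Rad51d, Fancf, Fance, Fanca and Fancc have estimates below 0, and most diamonds lie to the left of their point.

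The fold change in MEFs followed base composition across all genes, and this bears on the repair genes. Over 13290 tested genes with a GC share of their longest transcript, Spearman's rho between GC share and log2 fold change was -0.29, a description across genes that share the same 6 libraries. In the sixth of genes lowest in GC, 35.3% were higher in RepB-/- MEFs, and in the highest sixth 10.4% were. The 34 genes had a median GC share of 46.2%, against 49.9% for all tested genes, and the 16 that were higher had shares of 40.8% to 49.1%. Of the 7 genes in the lowest sixth, 7 were higher (35.3% of all genes in it). Of the 14 in the second, 7 were (23.5%), and of the 6 in the third, 2 were (18.5%). Of the 7 in the upper sixths, 0 were higher (10.4% to 16.2% of all genes in them). There 1 (Fance, 61.4% GC) was lower (22.4% to 31.2%), and these counts are too small to set apart from those shares. When GC share was entered as an offset for each library, 13 genes were higher and 0 lower, with a background of 17.8%, and the median log2 fold change was 0.32. All 13 were among the 16, and Mre11a, Brip1 and Chek1 no longer passed. Clspn kept 1.19 with the offset, Nbn 0.70 and Atr 0.58.

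**Figure D3:**
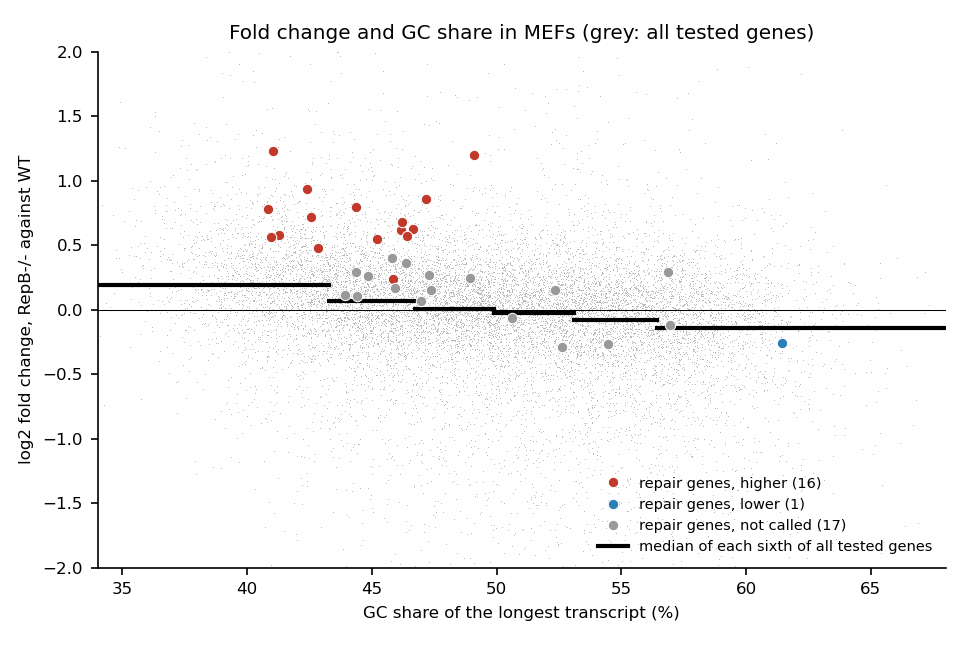
Log2 fold change of RepB-/- against WT MEFs (vertical) against the GC share of the longest transcript in percent (horizontal), for all tested genes (grey dots; genes beyond the axes are not drawn), the 34 repair genes coloured by call, and the median of each sixth of all genes (black bars). The medians go from 0.19 in the lowest sixth to -0.14 in the highest, and the repair genes called higher lie between 40.8% and 49.1% GC, all above the median of their sixth.

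Other repair pathways of MEFs give the setting of these changes. Of 67 other tested genes of recombination and the Fanconi pathway, 23 were higher (34.3%) and 6 lower (8.96%), with a median log2 fold change of 0.13. Of all genes tested, 19.4% were higher and 19.7% lower. The largest rises were in the X-linked core subunit Fancb (1.26 ± 0.27), the replication stress protein Etaa1 (1.03 ± 0.25) and Rev3l, the catalytic subunit of polymerase zeta (0.97 ± 0.12). The largest falls were in the ubiquitin ligase Rnf8 (fell by 1.14 ± 0.23 on the log2 scale), the nuclease subunit Ercc1 (by 0.69 ± 0.07) and the clamp subunit Rad9a (by 0.63 ± 0.13). Of its other X-linked genes, Atrx (0.63 ± 0.10) and Brcc3 (0.41 ± 0.12) were higher and Radx (0.06 ± 0.49) did not pass. Among all X-linked genes tested, 183 of 423 were higher.

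Non-homologous end joining, which rejoins ends without a template, had 3 of 15 genes higher (20.0%) and 2 lower (13.3%; median 0.22), near or below the 19.4% and 19.7% of all genes tested. Those higher were Prkdc (0.79 ± 0.14), Rif1 (0.66 ± 0.13) and Xrcc6 (0.65 ± 0.10), and those lower were Shld3 (fell by 0.97 ± 0.33) and Dclre1c (fell by 0.80 ± 0.21). Nucleotide excision repair had 0 of 18 higher and 1 lower, the helicase Ercc2, which fell by 0.61 ± 0.18 (median 0.03), and its X-linked gene Cetn2 had 0.20 ± 0.11. Base excision and mismatch repair had 5 of 22 higher (22.7%) and 3 lower (13.6%; median 0.15), again near or below those shares. Rises were found in Pms1 (0.87 ± 0.27) and Parp1 (0.52 ± 0.07), among others, and the genes that fell were Ogg1 (by 0.62 ± 0.15), Apex1 (by 0.46 ± 0.14) and Smug1 (by 0.41 ± 0.09).

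Of 29 tested replication fork genes, 17 were higher (58.6%) and 1 was lower (3.45%), with a median of 0.53. Of all genes tested, 19.4% were higher and 19.7% lower. X-linked Pola1 of DNA polymerase alpha (1.03 ± 0.18) and the helicase subunits Mcm6 (0.76 ± 0.08) and Mcm4 (0.75 ± 0.10) rose most, and Pold2 fell by 0.34 ± 0.11. The proliferation transcripts Mki67 (1.09 ± 0.14) and Top2a (1.01 ± 0.09) were also higher, as were E2f1 (0.28 ± 0.09) and E2f8 (0.43 ± 0.15); E2f7 (0.08 ± 0.13) did not pass, and these 5 are named after their values were seen. The study reported that RepB-/- MEFs proliferated more slowly in a cell counting assay and had a larger G2/M fraction. It also reported less Ki67 staining in tissues other than lung, and raised cell cycle signature genes in RepB-/- MEFs. RNA levels of these genes do not measure growth rate. The part of cell cycle stage in the repair gene differences was not tested. Targets of p53 went the other way, with 1 of 18 higher (5.56%) and 8 lower (44.4%), and a median of -0.12. The largest falls were in the apoptosis genes Pmaip1 (by 2.15 ± 0.19) and Bbc3 (by 0.73 ± 0.15) and in the CDK inhibitor Cdkn1a (by 0.74 ± 0.09), Sesn1 rose by 0.66 ± 0.13, and X-linked Eda2r had -0.03 ± 0.08.

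**Figure D4:**
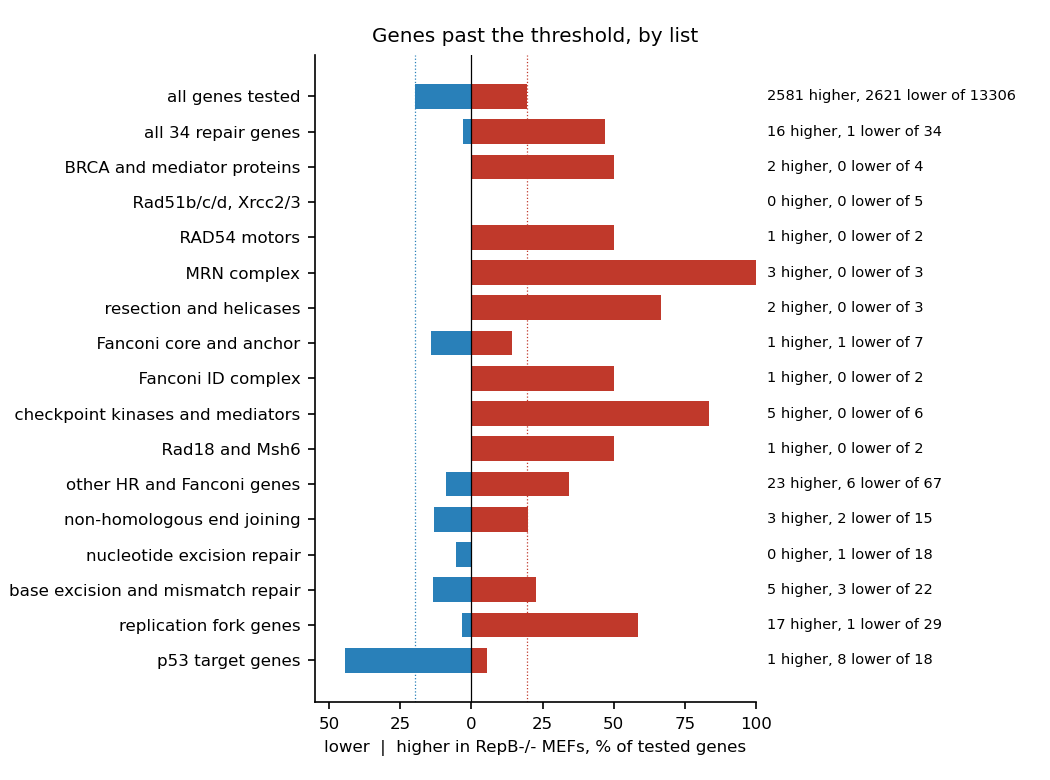
Share of tested genes called higher (right, red) and lower (left, blue) in RepB-/- MEFs for all genes, the 34 repair genes, each role group and 6 other lists, with the counts at the right and the shares of all genes as dotted lines. The MRN and checkpoint groups reach 3 of 3 and 5 of 6 higher, the group of Rad51b, Rad51c, Rad51d, Xrcc2 and Xrcc3 0 of 5, and the p53 targets lie to the left with 8 of 18 lower. The dotted lines stand at 19.4% higher and 19.7% lower, and the role groups are small.

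Markers of other cell types differed between the MEF genotypes as well. Of the 10 fibroblast markers, 5 were higher and 1 was lower, where 19.4% of all genes tested were higher and 19.7% lower. Of the 5 endothelial markers, 1 was higher and 4 lower, with sums of 22.7 to 26.1 CPM in RepB-/- and 36.7 to 44.6 CPM in WT. Of the 4 tested skeletal muscle markers only Acta1 passed, and it was lower (sums of 58.1 to 65.0 CPM in RepB-/- and 122.1 to 191.5 CPM in WT), while Myod1 and Myog had at most 5.35 CPM. Keratinocyte markers had 1 of 6 tested genes higher and summed to at most 13.6 CPM, and immune markers had 2 of 4 tested genes higher and 1 lower and summed to at most 31.1 CPM. The part of these cell types, and of the unequal depth, in the repair gene differences was not tested.

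Liver gave no genotype call among the 34 genes. All 34 were tested, 0 were higher and 0 lower by edgeR, where 0.00622% of 16080 genes were higher and 0.0311% lower. DESeq2 called 0, 0 had an unadjusted p under 0.05, and the smallest unadjusted edgeR p over the 3 and 3 libraries was 0.115. The log2 fold changes lay between -0.64 and 0.62 with a median of 0.06, and their standard errors lay between 0.20 and 1.37, with a median of 0.49 (0.16 in MEFs). RepB-/- libraries lay above all WT libraries in 0 of the 34 genes (3.38% of all genes tested) and below in 1 (4.66%). That gene was Fancc, with 2.57, 2.52 and 1.66 CPM in RepB-/- and 4.10, 3.49 and 2.92 CPM in WT. Without RepB-/- replicate 2, which stood apart by its *Xist* and Y-linked counts, 0 of the 34 genes were called too.

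In liver the replicate 1 libraries of both genotypes often stood apart from the others. Both replicate 1 libraries, 1 of each genotype, lay above the 4 others in 23 of the 34 genes, where 23.0% of all genes tested did, and below in 1 gene (Rad51d), where 21.3% did. Brca1 stood at 7.11 CPM in RepB-/- replicate 1 and at 7.12 CPM in WT replicate 1, and at 1.45 and 2.86 CPM in the other RepB-/- and 1.24 and 1.82 CPM in the other WT libraries. Clspn stood at 6.63 and 6.74 CPM in the replicate 1 libraries and at 0.735, 1.90, 0.207 and 1.37 CPM in the others. In both genes the replicate 1 libraries agree between genotypes and the others lie far lower. The ratio of the means was at least 2 in 14 genes and was highest for Exo1 (8.03-fold), Chek1 (6.87-fold), Clspn (6.35-fold), Fancd2 (6.30-fold), Fanci (6.13-fold) and Fanca (5.52-fold).

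For other genes the ratio lay nearer to 1. Msh6 had 20.7 and 24.2 CPM in the replicate 1 libraries against 10.8 to 12.2 CPM in the others, a ratio of 1.93. Nbn, of the MRN complex, had 12.2 and 14.0 CPM in the replicate 1 libraries and 10.5 to 14.6 CPM in the others, and Atr had 11.5 and 10.6 against 7.99 to 10.4 CPM. Atm had 6.18 and 4.02 against 5.81 to 7.16 CPM, the lowest ratio but 2 of the 34 genes. Of the 16 genes called higher in RepB-/- MEFs, 12 were above in both replicate 1 livers, as were 11 of the 17 not called. The same 2 libraries held 506.6 and 368.9 CPM of Afp, the fetal serum protein, against 2.79 to 6.04 CPM in the others, and more Mki67 (54.2 and 30.4 against 4.004 to 28.3 CPM) and Top2a (48.6 and 35.8 against 1.86 to 13.2 CPM). The labels give no age for any liver, and the part of stage or of a batch in these levels was not tested.

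**Figure D5:**
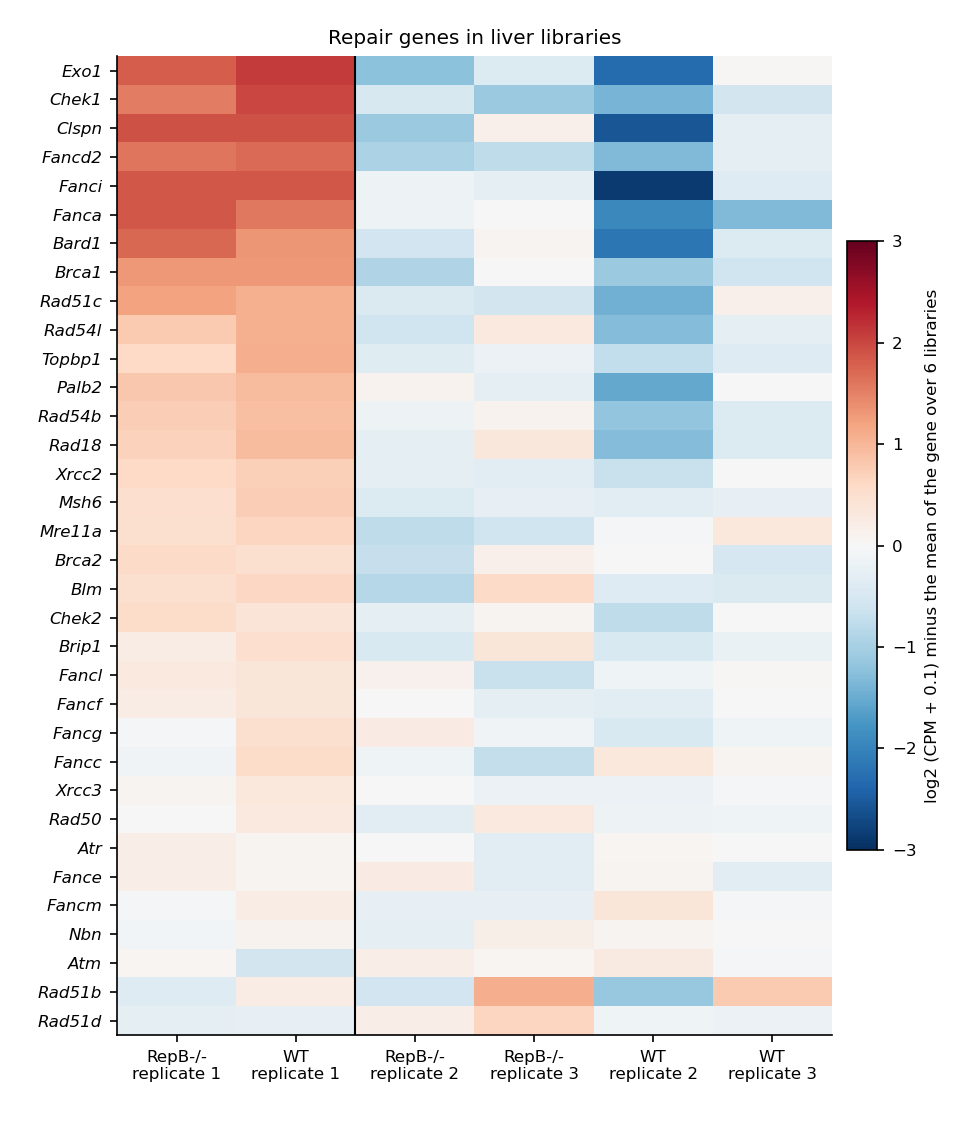
Level of the 34 genes in the 6 liver libraries, as log2 of CPM plus 0.1 minus the mean of the gene over the libraries, ordered by the ratio of the replicate 1 libraries to the others. Red columns on the left are the replicate 1 libraries of RepB-/- and WT, which agree in colour down to about the middle of the list, and Rad51b and Rad51d at the bottom are not raised there.

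Levels per length, which allow comparison between genes, set the genes in a different order in each tissue. In WT MEFs the means ran from 0.283 FPKM for Rad51b to 7.73 ± 0.30 (SD, n = 3) for Fance, followed by Msh6 at 7.01 ± 1.15, which does not differ from Fance beyond its spread, and Rad51d at 6.01 ± 0.30. In WT liver the highest were Nbn at 6.21 ± 1.43, Fance at 5.50 ± 1.44 and Rad51b at 4.91 ± 2.57 FPKM, whose spreads overlap, and the lowest were Fancd2, Exo1 and Bard1 at 0.299, 0.220 and 0.173 FPKM. Rad51b was thus last in MEFs and the third in liver, with 4.26 to 20.5 CPM over the liver libraries and 0.866 to 1.29 CPM over the MEF libraries. Fancl also had more CPM in every liver library (3.79 to 7.85) than in any MEF library (0.802 to 3.77). The tissues were normalised separately, so these levels were not tested against each other.

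The genotype effect was compared between tissues by the interaction term over 15208 genes and 12 libraries. Among the 34 genes 0 passed in either direction, and 3 had an unadjusted p under 0.05. Among all genes tested, the log2 genotype effect was greater in MEFs than in liver for 0.118% and smaller for 0.27%. The 3 genes with an unadjusted p under 0.05 were Nbn, with a difference of effects of 0.91 ± 0.21 (edgeR adjusted p = 0.0972), Atr with 0.86 ± 0.26 (edgeR adjusted p = 0.182) and Fancl with 1.37 ± 0.51 (edgeR adjusted p = 0.254). A further tool, limma voom, also called 0. For none of the 34 genes was the effect in MEFs shown to differ from that in liver by edgeR. That fit shared 1 dispersion per gene over tissues of unequal spread (median standard error 0.16 in MEFs and 0.49 in liver). A difference could therefore be missed. Clspn, with the smallest p in MEFs, had a difference of 1.06 ± 1.32.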

How the data were processed

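The deposited counts are whole reads per gene without normalization, in 1 file for MEFs (GRCm39 coordinates) and 1 for liver (GRCm38). The deposited FPKM values, made by the authors from the same reads, were used only to compare genes by level. The study's methods name stranded libraries, Cutadapt, Hisat2 and DESeq2, and the submitters' processing notes list Trim Galore 0.4.1, STAR 2.7.0, HTSeq 0.12.4, DESeq2 and deepTools 3.5.0, so which tools made which file and whether counting used strand are not given in the sources used here. A count that ignored strand could add or drop reads over bases shared with a gene on the other strand. Which of these would occur depends on the counting mode, which is not given. The 6 liver TPM columns were not used, nor were the authors' own fold changes and p-values.

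Each tissue was fitted alone with edgeR 4.0.16 (TMM, filterByExpr, quasi-likelihood test, Benjamini-Hochberg over all tested genes, adjusted p under 0.05, no fold limit) in R 4.3.3. CPM values use TMM-scaled library sizes. The biological coefficient of variation was 9.06% in MEFs and 51.2% in liver. Same-numbered libraries correlated after removal of group means at 0.71, 0.36 and 0.37 in liver. The shared departure of the replicate 1 libraries enters all 3 values through the group means, and libraries with different numbers were not compared. The values therefore do not show that replicates 2 and 3 are paired. A block on replicate number changed no call among the 34 genes in liver, while in MEFs Mre11a and Fance lost their calls with it. Alternatives were DESeq2 1.42.0, its size factors, autosomal TMM, other filters, the block and leaving out libraries. A GC offset was chosen after seeing the data. All 34 genes are named; of other lists, the 3 largest rises and falls and every X-linked gene, and exceptions are marked; some genes of these lists are not reported here. Genes and lists were chosen with earlier results of these data known. Scripts were tested on simulated data. Promoters are from RefSeq (GRCm38.p6).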

Additional observations from a re-analysis of the deposited data

How the results depend on the processing

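In MEFs, the 16 genes called higher became 13 under DESeq2, 15 with the size factors of DESeq2, 16 with autosomal TMM, 19 without a filter on low counts, 14 of 33 tested with mean counts of at least 40, 13 with the GC offset (chosen after seeing the data), and 12 to 17 when 1 library was left out. The 1 gene called lower became 0 under DESeq2, without a filter, with the replicate block and with the GC offset, and 0 to 1 when 1 library was left out. Of the 16, 12 were called whichever library was left out. DESeq2's background was 12.3% higher over 19330 genes, a wider set than the 13306 tested by edgeR, so this share is not comparable with edgeR's. All 13 genes called higher by DESeq2 were among the 16.

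MEF libraries with the same replicate number correlated at -0.011, -0.042 and -0.0035 after removal of group means, so the numbers do not pair them; with the replicate block 15 genes were higher and 0 lower. In liver, 0 genes were called in either direction under each alternative run, the replicate block among them, and the block lowered the biological coefficient of variation to 33.7%. The interaction had 0 calls with the block, and 0 to 1 higher when 1 library was left out: without WT liver replicate 1, Nbn passed (edgeR adjusted p = 0.048). That library and RepB-/- liver replicate 1 each set the sign of several liver estimates, none of which was called. Depth limits the lowest genes: Fancl had as few as 10 counts in a MEF library.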
